A study of Mus musculus with 12 samples.

Results

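Hepatocytes store triglyceride in lipid droplets, and the 10 genes described here encode proteins that coat these droplets, control their size or build and break down the fat inside them. They are Plin2, Plin3, Plin4, Plin5, Cidec, Cideb, Pnpla2, Abhd5, Mgll and Dgat2, found by symbol among the 45777 gene rows of the expression table. All 10 were present, each in 1 row, and all 10 passed the filter on low counts in every comparison.

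The 12 livers came from male C57BL/6 mice, aged 10 to 12 weeks by the labels, in 4 groups of 3: wild-type (WT) littermates given vehicle, WT mice given acetaminophen (APAP), Gna12 knockout (KO) mice given vehicle and Gna12 KO mice given APAP. Gna12 encodes a G protein subunit, Gα12. By a supplementary figure legend of the study the KO mice were genotyped in tail DNA, so the deletion was not tied to a liver cell type. APAP was injected once into the abdomen at 300 mg/kg and the liver was taken 6 h later. By the methods, mice were fasted overnight before the APAP dose, and whether the vehicle mice were fasted is not stated separately. Total RNA of whole liver was selected for polyadenylated transcripts and sequenced, from livers that the labels number 1 to 3 in each group, with a separate library for each.

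Droplets form at the endoplasmic reticulum when the acyltransferase Dgat2 adds the last fatty acid to triglyceride. Perilipins (Plin) cover the surface and limit the access of lipases, and Cidec and Cideb sit where droplets touch and let fat pass from one to the other. Pnpla2, also called ATGL, starts the breakdown of triglyceride with its activator Abhd5, and Mgll releases the last fatty acid. In the liver droplets grow during fasting, when fat arrives from adipose tissue, and Plin2 is known as the main hepatic coat protein, degraded when it is not bound to a droplet.

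The libraries held 49737950 to 69566079 counts. Gna12 itself was not lower in the livers labelled KO: it lay between 23.3 and 66.7 CPM (CPM are counts divided by the TMM-scaled library size) in the 6 WT livers and between 43.3 and 67.2 CPM in the 6 livers labelled KO. The study also measured Gna12 by qRT-PCR in liver and its protein by immunoblot, which are not analysed here. Which exons were deleted is not given in the sources used here, so a count over the whole gene may not show the deletion. For this reason the text writes "labelled KO" and any direction between genotypes is one between labels. Liver 1 of the WT APAP group stood apart, with 238212 counts of the hemoglobin gene Hba-a1 (2551 to 7713 in the other livers), neutrophil markers summing to 116 CPM and a scaling factor of 0.762. Its levels relative to other livers differed between CPM and TPM (the authors' values per transcript length, not rescaled by TMM), and for the 10 genes TPM is given beside CPM where the overlap of groups changed with it. Hepatocyte markers summed to between 62500 and 126000 CPM in every liver. Of the 5 adipocyte markers, Retn had no count in any liver, Plin1 reached 3 counts, Lep 2, Adipoq 19 and Cfd 37, so the defining markers of fat tissue were at or near 0. In bulk RNA of a whole organ, fewer cells of a type and less RNA per cell cannot be told apart.

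In the GRCm38 mouse genome 3 of the perilipin genes lie on the minus strand of chromosome 17: Plin4 at chr17:56100587-56109948, Plin5 at chr17:56111597-56117606, only 1648 bases away, and Plin3 at chr17:56278962-56290511, a further 161355 bases along. Plin2 lies alone at chr4:86626910-86670217 (minus strand). Cidec at chr6:113424634-113435760 (minus strand) and Mgll at chr6:88724412-88828360 (plus strand) share a chromosome, as do Dgat2 at chr7:99153663-99182713 (minus strand) and Pnpla2 at chr7:141455188-141460743 (plus strand). Cideb is at chr14:55754052-55758424 (minus strand) and Abhd5 at chr9:122351616-122381524 (plus strand).

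The sequences just upstream of the 3 genes that rose with APAP are shown, since perilipin genes are known targets of PPAR-alpha, a nuclear receptor whose half-site reads AGGTCA. They are from RefSeq on GRCm38.p6, read 5′ to 3′ on the gene's own strand, and capitals mark AGGTCA on either strand, which reads TGACCT when the match is on the opposite one. The Plin2 stretch is chr4:86670218-86670309, the Cidec stretch chr6:113435761-113436010 and the Plin5 stretch chr17:56117607-56117798, all on the minus strand and ending where the annotated gene begins.
Plin2: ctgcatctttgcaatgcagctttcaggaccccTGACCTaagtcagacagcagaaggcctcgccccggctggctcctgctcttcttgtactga
Cidec: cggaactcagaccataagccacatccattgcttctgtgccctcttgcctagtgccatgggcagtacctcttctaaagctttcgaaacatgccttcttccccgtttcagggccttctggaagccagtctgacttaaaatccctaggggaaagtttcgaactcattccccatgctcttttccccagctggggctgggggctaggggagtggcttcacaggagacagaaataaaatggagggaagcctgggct
Plin5: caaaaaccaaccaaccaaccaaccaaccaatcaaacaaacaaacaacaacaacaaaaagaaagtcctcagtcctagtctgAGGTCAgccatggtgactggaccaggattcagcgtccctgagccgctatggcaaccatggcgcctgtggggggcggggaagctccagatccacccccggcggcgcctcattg

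Over the 250 bases before each annotated start, 9 of the 10 genes had 12 windows in RefSeq's table, and Dgat2 had none. AGGTCA was found on either strand in 3 of the 12 windows, those of Plin2 (218 to 213 bases before the annotated start used, which lies inside the gene's span, opposite strand), Plin5 (170 to 165 bases before one of its 2 starts) and Abhd5 (69 to 64 bases before it, opposite strand), against 14.0% of all 32851 windows of this length. The direct repeat of AGGTCA with 1 base between the copies was in 0 of the 12 windows and in 0.0335% of all. TGANTCA, the AP-1 motif, was in 1 window each of Cidec and Plin5 (6.75% of all), and TGACNNNGC, the core of the antioxidant response element, was in that of Cideb (10.2% of all). ACGTG, which includes the core of the hypoxia response element, was in both windows of Mgll (16.6% of all), where 1 window matched on both strands at overlapping bases, and GCGTG, the other form of that core, was in 7 windows of 5 genes (28.2% of all). These are matches of letters in a window and no binding was measured.

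The first question was how much of each transcript the livers held. Levels of different genes are compared here in TPM, which divides by transcript length. In the 6 vehicle livers Dgat2 (307 ± 64.1 TPM, SD, n = 6) and Plin2 (300 ± 84.2 TPM) were the most abundant of the 10, followed by Cideb at 224 ± 21.7 TPM, and the ranges of these 3 genes overlapped. Mgll (98.6 ± 36 TPM), Pnpla2 (69.7 ± 15.3 TPM) and Plin5 (67.4 ± 20.3 TPM) formed a middle set whose ranges overlapped each other but not that of Cideb. Plin3 was at 21 ± 3.79 TPM, clear of that set. Plin4 (10.2 ± 5.33 TPM), Abhd5 (10.1 ± 1.31 TPM) and Cidec (9.49 ± 6.35 TPM) were the lowest and could not be ordered. The ranges of Plin4 and Cidec reached into that of Plin3.

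In the 6 APAP livers the order was another. Plin2 stood at 1100 ± 496 TPM, with its lowest liver (562 TPM) above the highest Dgat2 value (372 TPM), and its rank among all genes moved from 352 to 119. Cidec moved from last to the seventh place at 51.9 ± 46.8 TPM and from rank 5416 to 1581 among all genes, although its range, 9.81 to 135 TPM, overlapped those of 6 of the other genes. Within the summed TPM of the 4 perilipins measured here, the share of Plin2 had a median of 76.1% in vehicle livers (63.9 to 83.1%) and 86% in APAP livers (75.9 to 92.8%). That of Plin5 had a median of 17.3% with vehicle (10.2 to 24.8%) and 10.4% after APAP (4.37 to 18.9%), in ranges that overlapped. Its own mean level was higher after APAP, at 126 TPM against 67.4 TPM with vehicle.

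**Figure D1:**
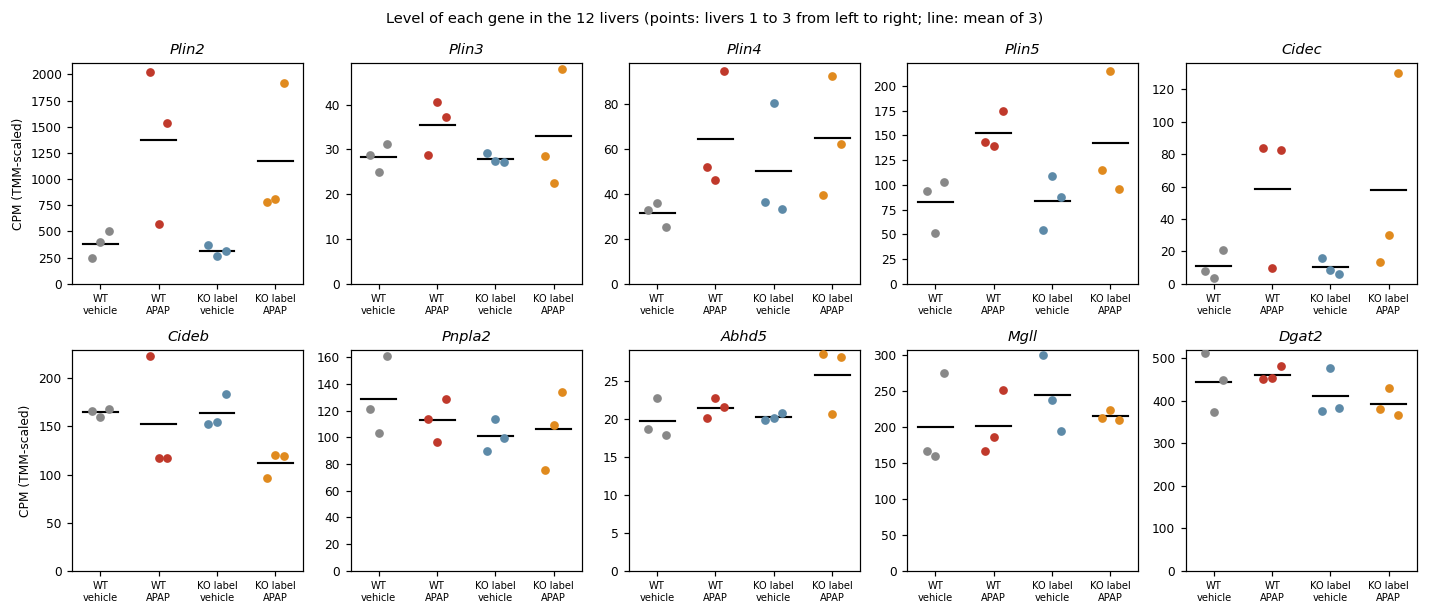
Level of each of the 10 genes in CPM (vertical axes, from 0, scaled separately for each gene) in the 12 livers, grouped by genotype label and treatment; points are livers and the line is the mean of 3. Every APAP point of Plin2 lies above every vehicle point, Cidec spreads from 9.63 to 130 CPM after APAP, and the vehicle and APAP points of Dgat2 and Pnpla2 overlap.

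The main question of the design was what APAP changed. Over both genotype labels, 6 APAP livers were set against 6 vehicle livers with the label as a term, and 25.4% of the 16509 genes tested differed at an adjusted p under 0.05, with 14% higher and 11.4% lower. Of the 10 genes, 3 rose (Plin2, Cidec and Plin5), 0 fell and 7 did not pass, which is near that share of all genes. In CPM, Plin2 was the only 1 of the 10 with no overlap between APAP and vehicle livers, a separation seen in 12.5% of all genes tested. In TPM both Plin2 and Cideb were separated, as were 6.5% of all genes. The median log2 difference of the 10 was 0.26, and that of all genes was 0.01. Some markers of cell types passed in the same comparison. Cyp2e1, a marker of hepatocytes around the central vein, was lower (log2 -1.06, edgeR adjusted p = 0.000262), as was the stellate cell marker Lrat (-0.88, 0.0493). The endothelial markers Lyve1 (1.09, 9.23e-05) and Pecam1 (0.41, 0.0121) were higher. The other markers of these lists did not pass and pointed in both directions. They were Alb (log2 0.23), Apoa1 (0.24), Ttr (0.19) and Tat (-0.21) for hepatocytes. For stellate cells they were Reln (0.11), Dcn (0.18), Col1a1 (-0.81) and Des (-0.07), and for endothelium Kdr (-0.42), Stab2 (-0.11) and Clec4g (0.08). No tested marker of Kupffer cells or neutrophils passed. The part of the marker differences in the values of the 10 genes was not tested.

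Plin2, the main coat protein of hepatic droplets, carried the clearest difference. Its level was 247, 394 and 499 CPM in the WT vehicle livers and 371, 263 and 312 CPM in those labelled KO. After APAP it was 2020, 566 and 1540 CPM in WT livers and 782, 813 and 1920 CPM in livers labelled KO. All 6 APAP livers were above all 6 vehicle livers, and within APAP the highest liver held 3.57 times the lowest. Plin2 was 3.68-fold higher with APAP (95% interval 2.27 to 5.94, log2 difference 1.88 ± 0.32 SE, adjusted p = 0.00115, edgeR's quasi-likelihood test). Without the hemoglobin-rich liver its log2 difference was 1.71 (adjusted p = 0.00227). In TPM that liver held 1100, so it was the third highest and no longer the highest of the 6.

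Cidec, which lets droplets fuse and grow, had the largest fold change of the 10 and the widest scatter. It was at 7.65, 3.55 and 21.1 CPM in WT vehicle livers and at 15.7, 8.51 and 5.9 CPM in vehicle livers labelled KO. With APAP it was at 84, 9.63 and 82.3 CPM in WT livers and at 13.6, 30.1 and 130 CPM in livers labelled KO. The groups overlapped, since 2 APAP livers were below the highest vehicle liver. Cidec was 5.61-fold higher (95% interval 2.13 to 14.8, log2 2.49 ± 0.64 SE, edgeR adjusted p = 0.013), but without liver 3 of the APAP group labelled KO the log2 difference was 1.9 and the adjusted p 0.0511.

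Plin5, a coat protein of oxidative tissues that also meets mitochondria, rose by less. Vehicle livers held 93.7, 51.3 and 103 CPM (WT) and 54.3, 109 and 87.4 CPM (labelled KO). The APAP livers held 143, 139 and 175 CPM (WT) and 115, 215 and 96 CPM (labelled KO), and 1 of these 6 was within the vehicle range. In TPM the hemoglobin-rich liver, at 73.7, was within it as well (vehicle livers up to 91.7). The difference was 1.77-fold (95% interval 1.25 to 2.53, log2 0.83 ± 0.24 SE, edgeR adjusted p = 0.0215). It missed the threshold without WT APAP liver 3 (adjusted p = 0.0507) or without liver 2 of the APAP group labelled KO (0.0588).

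Plin4, a coat protein best known from fat and muscle, did not pass over both labels (1.63-fold, 95% interval 1.06 to 2.51, edgeR adjusted p = 0.0898). Its WT livers were at 32.8, 35.9 and 25.2 CPM with vehicle and 51.8, 46.1 and 94.6 CPM with APAP, which did not overlap, while in TPM they did (5.92 to 8.52 with vehicle and 8.13 to 24.1 with APAP). Its livers labelled KO were at 36.3, 80.2 and 33.1 CPM with vehicle and 39.3, 92.2 and 62.2 CPM with APAP, which did. One vehicle liver, the second of those labelled KO, held more Plin4 than 4 of the 6 APAP livers, and without it the log2 difference was 0.98 (adjusted p = 0.0141). Plin4 also passed without liver 1 of the APAP group labelled KO (adjusted p = 0.038) and by DESeq2's Wald test (0.045). Plin3, the perilipin that moves from the cytosol to new droplets, lay between 24.9 and 31.1 CPM with vehicle and between 22.5 and 48 CPM with APAP (1.22-fold, 95% interval 0.964 to 1.55, edgeR adjusted p = 0.207). The highest liver held 1.25 times the lowest with vehicle and 2.13 times with APAP, and this difference in spread was not tested.

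Cideb, the hepatocyte relative of Cidec that helps load fat onto VLDL, pointed the other way in 5 of 6 livers. Vehicle livers held 166, 160 and 168 CPM (WT) and 153, 155 and 184 CPM (labelled KO), the tightest set among the 10. With APAP the values were 223, 117 and 117 CPM in WT livers and 96.9, 120 and 119 CPM in livers labelled KO. The liver at 223 CPM was the hemoglobin-rich one, and in TPM it held 192 against 163 to 190 in the other 5 and 198 to 255 in vehicle livers. Over all 12 livers the difference did not pass (0.799-fold, 95% interval 0.618 to 1.03, edgeR adjusted p = 0.19). Without that liver it did (log2 -0.52, adjusted p = 0.00129), and with limma on quantile-normalised log2(TPM + 1) it did with all 12 (log2 -0.33, adjusted p = 0.0285), but not on log2(TPM + 0.1) (-0.34, 0.0509). Of its 1488 exon bases, 1136 overlap exons of Nop9 on the other strand, and whether reads were counted by strand is not given in the sources used here. Nop9 itself was at 22.8 to 35.8 CPM, and its log2 difference with APAP in livers labelled KO was 0.38 (edgeR adjusted p = 0.0537). The part of Nop9 reads in the Cideb counts was not tested.

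The lipase genes Pnpla2 and Mgll, the activator gene Abhd5 and the synthesis gene Dgat2 did not pass. Pnpla2 was at 90.1 to 161 CPM (median 109) with vehicle and 75.5 to 134 CPM (median 111) with APAP, a ratio of 0.964 (95% interval 0.762 to 1.22). Abhd5, its activator, was at 17.9 to 22.7 CPM with vehicle and 20.1 to 28.5 CPM with APAP, 1.18-fold (1.01 to 1.38, edgeR adjusted p = 0.119), and passed only without WT vehicle liver 2 (adjusted p = 0.0451). Mgll ran from 160 to 300 CPM and from 166 to 252 CPM, a ratio of 0.943 (0.736 to 1.21). Dgat2 was at 373 to 511 CPM and 366 to 480 CPM, a ratio of 0.997 with the narrow interval of 0.843 to 1.18. On the strand opposite to Abhd5, 950 of its 5956 exon bases overlap A730085K08Rik, which had no count in any liver, and 167 of the 5077 exon bases of Mgll overlap Gm26588, at 1.6 to 9.46 CPM.

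**Figure D2:**
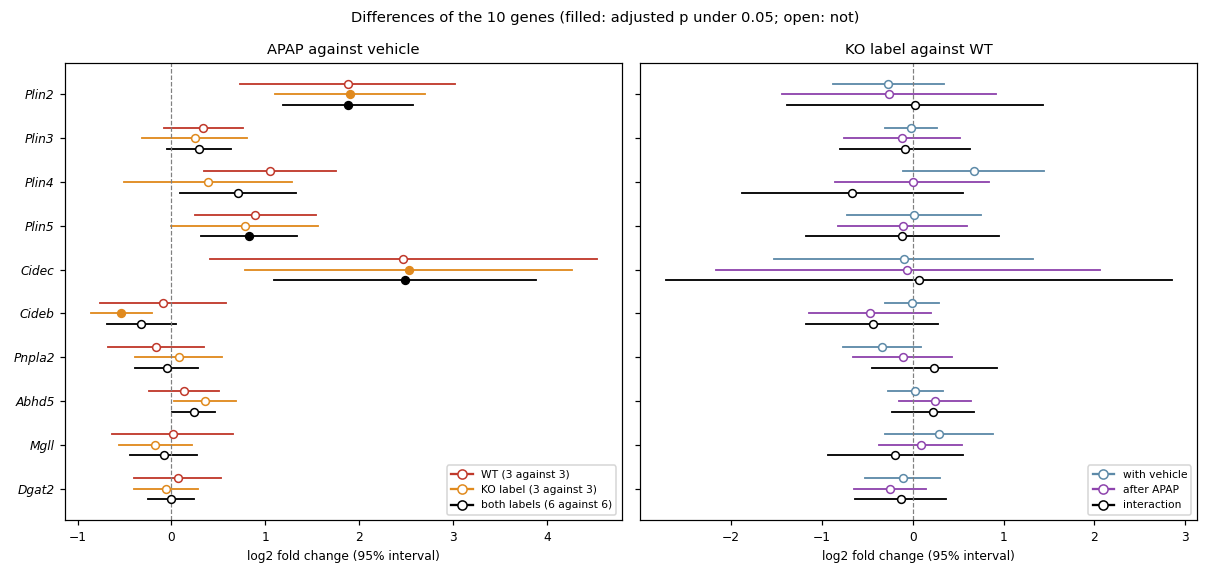
Log2 fold change (horizontal axes) of the 10 genes with 95% intervals from edgeR; left, APAP against vehicle in WT livers, in livers labelled KO and over both; right, KO label against WT with vehicle, after APAP and as the interaction. Filled points have an adjusted p under 0.05: Plin2, Cidec and Plin5 over both labels, Plin2, Cidec and Cideb in livers labelled KO, and no point on the right.

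Each label was also tested on its own, with 3 livers against 3. In WT livers 2.05% of the 15693 genes tested passed and 0 of the 10 did by edgeR. At an unadjusted p under 0.05 there were 4, beside 18% of all genes, and all 4 were above vehicle: Plin2 (log2 1.88 ± 0.49 SE, adjusted p = 0.102), Plin4 (1.05 ± 0.3, 0.125), Plin5 (0.89 ± 0.28, 0.148) and Cidec (2.47 ± 0.89, 0.199). DESeq2's Wald test called 3 of these, Plin2, Plin4 and Plin5, beside 9% of all genes in that fit. In CPM the WT groups did not overlap for these same 3 genes, where 24.8% of all genes were separated. In TPM Plin4 and Plin5 overlapped, and the groups were separated for Plin2 and Cideb and for 16% of all genes. Plin2 passed by edgeR without WT APAP liver 2, the APAP liver with the least Plin2 and Cidec (log2 2.23, adjusted p = 0.0349).

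In livers labelled KO 22.6% of the 15665 genes tested passed, 13% higher and 9.6% lower. Of the 10 genes, 2 rose and 1 fell. Plin2 rose 3.72-fold (95% interval 2.14 to 6.48, edgeR adjusted p = 0.00776). Cidec rose 5.76-fold (1.72 to 19.3, 0.0461) and Cideb fell to 0.689 of vehicle (0.551 to 0.862, 0.0284). Plin2 and Cideb did not overlap between the groups, as 42.9% of all genes did not in CPM and 35.6% in TPM. The calls of Cidec and Cideb did not hold without any 1 of the 3 vehicle livers or without APAP liver 3, and that of Cideb did not hold without APAP liver 1 either, with adjusted p up to 0.15 for Cidec and 0.0902 for Cideb, while Plin2 passed without any single liver. With all 12 livers in one fit neither Cidec (adjusted p = 0.101) nor Cideb (0.145) passed, and with limma on log2(TPM + 0.1) neither did (0.137 and 0.0586).

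The comparison that addressed Gα12 was that of the labels. After APAP, 0.0309% of the 16174 genes tested differed between KO label and WT, and 0 of the 10. At an unadjusted p under 0.05 there were 3.31% of all genes and 0 of the 10, and DESeq2 called 0 of the 10. Plin2 was at a ratio of 0.833 (95% interval 0.367 to 1.89), Cidec at 0.962 (0.222 to 4.17) and Plin5 at 0.924 (0.566 to 1.51), intervals wide enough to hold a doubling of Cidec in either direction. Dgat2 was lower in all 3 livers labelled KO (366, 379 and 430 CPM) than in all 3 WT livers (450, 453 and 480 CPM), with a ratio of 0.841 (0.636 to 1.11, edgeR adjusted p = 0.958). These groups were separated for 8.53% of all genes in CPM and for 17% in TPM, where Dgat2 overlapped (305 to 352 TPM labelled KO and 202 to 372 TPM in WT). With vehicle, 0.0262% of the 15262 genes tested and 0 of the 10 differed, and 7.56% of all genes and 0 of the 10 had an unadjusted p under 0.05. Plin4 had the largest ratio there, 1.59 (0.929 to 2.73), and Pnpla2 the next, 0.789 (0.585 to 1.07). The interaction of label and treatment was called for 0% of the 16509 genes by edgeR, with 5.14% at an unadjusted p under 0.05, and for 9 by DESeq2. None of the 10 was among any of these. For Plin2 the APAP ratio in livers labelled KO was 1.02 times that in WT (95% interval 0.383 to 2.7).

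The 10 genes did not spread over the livers in the same way. Plin2 and Cidec were both highest in WT APAP liver 1, WT APAP liver 3 and liver 3 of the APAP group labelled KO, in a different order, followed by livers 2 and 1 of the latter group, and both were lowest of the APAP livers in WT APAP liver 2. Among vehicle livers both were highest in WT liver 3, but for Plin2 WT liver 2 came next, which was last for Cidec. Plin4 and Plin5, neighbours on chromosome 17, took another order: WT APAP liver 3 and liver 2 of the APAP group labelled KO led in both, and liver 2 of the vehicle group labelled KO led the vehicle livers in both. Plin5 was lowest of the APAP livers in liver 3 of the group labelled KO, the liver with the most Cidec. The SD of log2 CPM over the 12 livers was 1.65 for Cidec and 1.08 for Plin2, against 0.169 for Dgat2 and 0.208 for Abhd5.

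**Figure D3:**
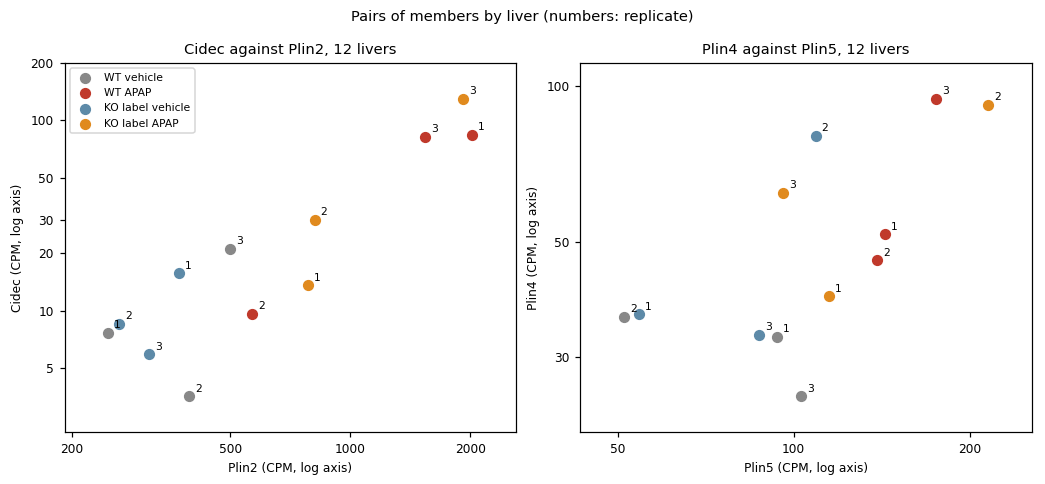
Cidec against Plin2 (left) and Plin4 against Plin5 (right) in CPM on log axes; each point is 1 of 12 livers, coloured by group and numbered by replicate. On the left 3 APAP livers lie apart at over 1500 CPM of Plin2 and over 80 CPM of Cidec, and WT APAP liver 2 lies close to the vehicle livers.

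Other genes of droplet biology were read in the same comparison over both labels, from lists fixed by function. For each list count below, the share over all genes in this comparison was 14% higher and 11.4% lower. Of 13 other coat and size genes, 11 were tested (Plin1 and Cidea had at most 3 and 7 counts), 0 rose and 1 fell, with a median log2 difference of -0.21. The 1 was Ldah, a droplet-bound hydrolase, at 31.8 to 41.2 CPM with vehicle and 19.9 to 26.3 CPM with APAP (log2 -0.69 ± 0.1 SE, edgeR adjusted p = 0.000391). Without the hemoglobin-rich liver 2 of the 11 fell, Ldah and Mettl7b, where 28.3% of all genes passed in either direction.

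Of 13 other lipases and lipase regulators, 1 rose and 4 fell (median log2 -0.3). Both known inhibitors of Pnpla2 on the list passed, in opposite directions. Hilpda, which is also induced by hypoxia, was at 2.26, 2.08 and 2.16 CPM in WT vehicle livers, 1.66, 0.954 and 1.77 CPM in vehicle livers labelled KO, 208, 3.51 and 9.39 CPM in WT APAP livers and 3.83, 4.21 and 16 CPM in APAP livers labelled KO. All APAP livers were above all vehicle livers, and the hemoglobin-rich one was far above the rest. The log2 difference was 3.82 ± 0.98 SE (edgeR adjusted p = 0.0121) with that liver and 2.06 (0.00368) without it. G0s2 fell (log2 -1.54 ± 0.38 SE, adjusted p = 0.0105), from 31 to 312 CPM with vehicle to 11.7 to 62.9 CPM with APAP, in groups that overlapped. Abhd6, a monoacylglycerol lipase, and the carboxylesterases Ces1d and Ces3b fell as well, by 0.75, 0.79 and 0.62 on the log2 scale. Ces3b passed in 4 of the 12 fits that left out 1 liver. Without the hemoglobin-rich liver 7 of the 13 passed, beside 28.3% of all genes in that fit.

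Of 12 genes of triglyceride synthesis, 1 rose and 3 fell (median log2 -0.11). Gpat3, which adds the first fatty acid to glycerol 3-phosphate, went from 4.75 to 12.2 CPM with vehicle to 12 to 53.3 CPM with APAP (log2 2.13 ± 0.34 SE, edgeR adjusted p = 0.000796), while Gpat4, with the same activity, fell (log2 -0.6 ± 0.15 SE, 0.00995). The phosphatidate phosphatase Lpin1 fell (-1.09 ± 0.33 SE, 0.026) and so did the acyltransferase Agpat3 (-0.37 ± 0.12 SE, 0.0398). Neither Lpin1 nor Agpat3 passed without the hemoglobin-rich liver (0.0543 and 0.0612). With each of the 12 livers left out in turn, Lpin1 passed 9 times and Agpat3 2 times, and Dgat1, the partner of Dgat2, was among the genes that did not pass.

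Of 6 VLDL assembly genes 1 fell, Tm6sf2 (log2 -0.56 ± 0.13 SE, edgeR adjusted p = 0.00762), and the list's median was -0.04. Of 10 regulators of droplet genes 1 rose and 2 fell, with a median of -0.3. Ppara, the gene of PPAR-alpha, went from 298 to 455 CPM with vehicle to 95.3 to 201 CPM with APAP, with no overlap (log2 -1.2 ± 0.17 SE, adjusted p = 0.000396). Hif1a rose (log2 0.89 ± 0.13 SE, 0.000464) from 23.6 to 30.9 CPM to 37.7 to 69 CPM, also with no overlap, and Mlxipl, the gene of ChREBP, fell (-0.47 ± 0.16 SE, 0.047). Without WT APAP liver 2 the regulators that passed numbered 5 and not 3, beside 26.7% of all genes in that fit. Mlxipl passed in 3 of the 12 fits that left out 1 liver.

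Some of the listed genes that fasting and PPAR-alpha are known to raise passed, in both directions, and others did not pass. Pdk4, which restrains glucose oxidation, went from 2.32 to 9.17 CPM with vehicle to 15.2 to 22.3 CPM with APAP (log2 2.25 ± 0.28 SE, edgeR adjusted p = 0.000143). Fgf21, a hepatic fasting hormone, went from 3.19 to 16.5 CPM to 17.8 to 70.8 CPM (2.32 ± 0.36 SE, 0.000672). The fatty acid oxidation gene Cpt1a fell (-0.65 ± 0.11 SE, 0.00123). As a group, the APAP livers held more Plin2 and Plin5 and less Ppara than the vehicle livers. This did not hold in each liver for Plin5, which was at 96 CPM in liver 3 of the APAP group labelled KO, within the vehicle range. Whether any of these transcripts controls another was not tested.

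**Figure D4:**
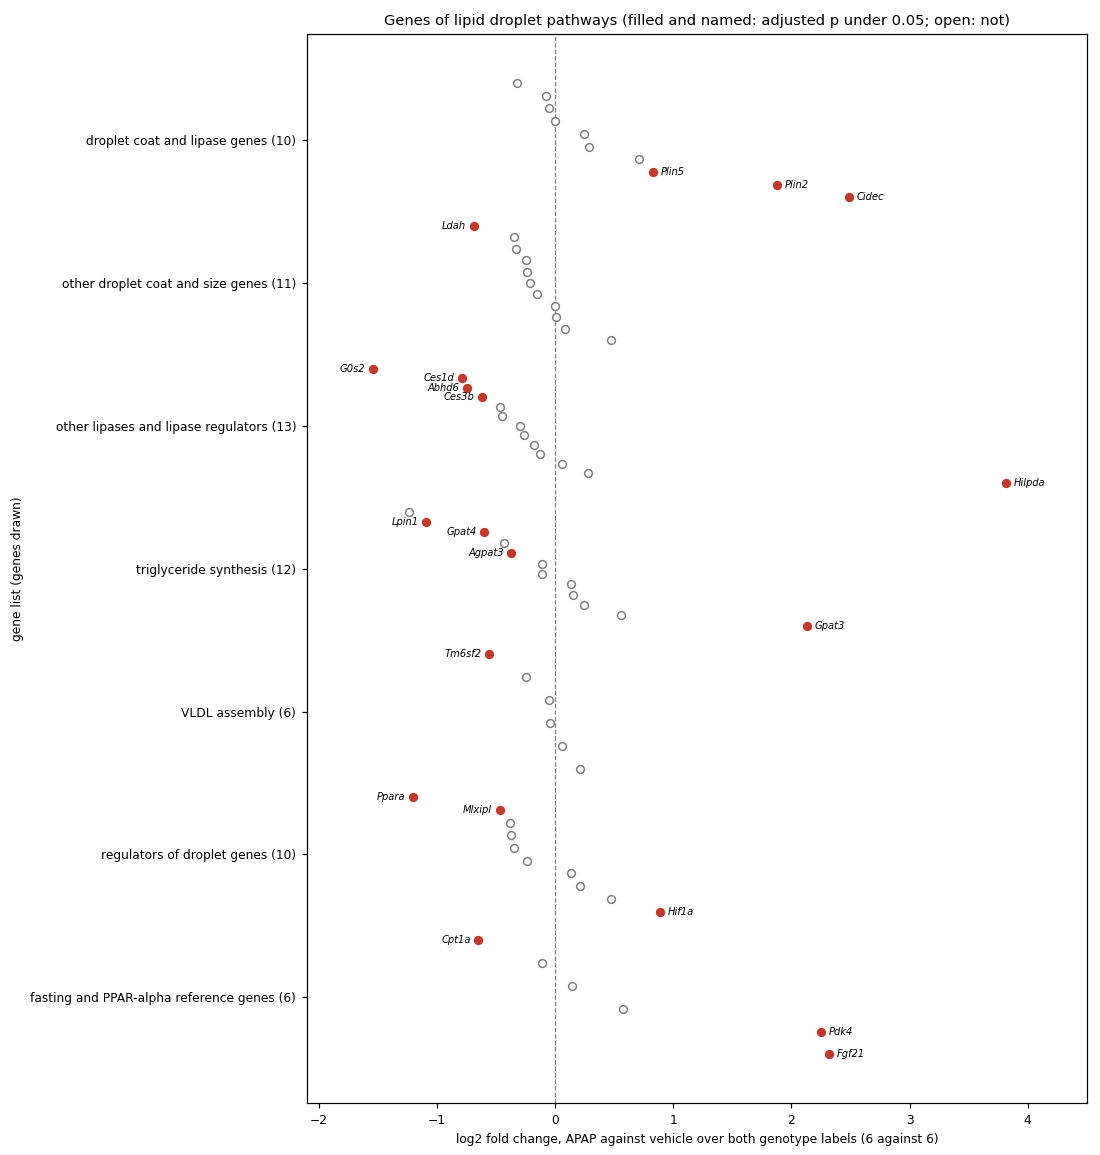
Log2 fold change of APAP against vehicle over both genotype labels (horizontal axis) for the 10 genes and 6 lists of related genes (rows, with the number of genes drawn); filled, named points have an adjusted p under 0.05. Points above 2 belong to Cidec, Hilpda, Gpat3, Pdk4 and Fgf21, and most named genes of the other lists lie below 0.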

How the data were processed

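RNA of 12 mouse livers was sequenced after poly-A selection with a stranded kit. Per the labels' processing notes, the authors used FastQC 0.11.7, Trimmomatic 0.38, HISAT2 2.1.0, Bowtie2 2.3.4.1 and StringTie 2.1.3b with mm10. Whether counting used strand is not given in the sources used here. The deposited table holds, for each gene and liver, a raw read count, FPKM and TPM made by the authors. Read counts were tested, deposited TPM served for levels between genes, and FPKM was not used.

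Counts were scaled by TMM over the 12 livers for CPM. Each comparison was fitted across all genes passing edgeR's filterByExpr (edgeR 4.0.16, R 4.3.3, glmQLFit and glmQLFTest, two-sided), on the groups compared or, over both labels and for the interaction, on all 12, and p-values of the genes in a fit were adjusted together by Benjamini-Hochberg with 0.05 as the threshold. SEs are the absolute log2 difference divided by the square root of F, and intervals cover 95%. Alternatives were DESeq2 1.42.0, its size factors, no filter, at least 10 counts in every liver, limma 3.58.1 on quantile-normalised log2(TPM + 1) or log2(TPM + 0.1), 1 fit of all livers for every comparison, a block for the replicate number, and fits that left out 1 liver. The labels number the samples as separate livers and libraries were made separately, but that each was 1 mouse is not said in so many words. The p-values set each difference against the spread between these samples.

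The 10 genes, the lists and the tests were chosen with earlier results of these data known. Genes of a list were named if they were past the threshold over both labels or among its 3 smallest p-values. The alternatives for list genes were added after their values were seen. In simulated data, 182 of 200 genes changed 4-fold were recovered with 15 false calls in the WT layout, and 198 with 11 over both labels. The changed genes were drawn above a minimum mean level and no liver was made to stand apart. The recovery of the 10 genes themselves was therefore not tested. All pairs of libraries differed beyond sampling noise. Locations and upstream sequences are from RefSeq (GRCm38.p6), strands and overlaps from GENCODE, and proteins were not used here. Results of some list genes and like genes are not reported here.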

Additional observations from a re-analysis of the deposited data

How the results depend on the processing

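Shares of all genes called in the same fits are given in brackets. Over both genotype labels the number of the 10 genes called stayed between 2 and 4 when each liver was left out (19.1% to 28.3%). It was 3 or 4 under the other alternatives (14.4% to 30.1%). In WT livers it was 0 as reported (2.05%), 3 by DESeq2 (9%) and 1 with all 12 livers in one fit (9.23%). With a WT liver left out it was 0 to 1 (0.251% to 2.79%). In livers labelled KO it was 3 as reported (22.6%), 1 with limma on log2(TPM + 0.1) (19%) and 1 with all 12 livers in one fit (13.6%). With a liver labelled KO left out it was 1 to 4 (12.2% to 20.9%). Between labels and for the interaction it was 0 under every alternative run. For the single values of the 10 genes 910 alternatives stayed on their side of the threshold, 12 crossed it to a call, 18 crossed it the other way, and no called value changed sign.

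Of all genes, WT calls went from 322 to 1413 by DESeq2, 1523 with all livers in one fit and 41 to 442 with a liver left out, the low values being 43 and 41 without vehicle livers 1 and 3 and 68 without APAP liver 3. Calls in livers labelled KO went from 3538 to 2249 with all livers in one fit, to 1995 without vehicle liver 2 and to 2071 without APAP liver 3. KO label against WT after APAP went from 5 to 29 by DESeq2, 1 with at least 10 counts in every liver, 0 with all livers in one fit and 1 to 7 with a liver left out (1 without WT liver 3, 2 without liver 1 or 2 labelled KO). With vehicle it went from 4 to 137 by DESeq2, 8 with limma on log2(TPM + 0.1), 0 with all livers in one fit and 0 to 16 with a liver left out (16 without liver 1 labelled KO, 0 without liver 2 or 3). The interaction went from 0 to 9 by DESeq2 and to at most 2 with a liver left out. Of the lists, the coat genes called went from 1 to 3 with limma on log2(TPM + 1) and to 2 without WT APAP liver 1 or 2 or vehicle liver 3 labelled KO, synthesis genes from 4 to 2 with limma on either scale or without APAP liver 3 labelled KO, and VLDL genes from 1 to 2 by DESeq2. In these fits of the lists 19.1% to 30.1% of all genes passed, against 25.4% as reported. The cause of the changes in calls was not tested.

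The replicate numbers did not pair the samples: 18 same-numbered pairs of deviations correlated from -0.42 to 0.21, 1 of them over 0.1. With the replicate block, WT calls over all genes fell to 62, those of KO label against WT to 1 after APAP and 0 with vehicle. The number of the 10 genes called with it was 0 in WT livers (0.395% of all genes) and 3 over both (21.4%). In livers labelled KO it was 2 (17.6%), and Cidec did not pass (edgeR adjusted p = 0.161).

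With 3 livers a group, the interval of the Cidec ratio of APAP to vehicle ran from 1.32 to 23.1 in WT livers and from 1.72 to 19.3 in livers labelled KO. Counting error was small beside this, since the lowest of the 10, Cidec, had 169 counts or more in every liver.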

Other observations

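Among 10912 well-expressed genes, those whose log2 CPM ran close to Plin2 over the 12 livers, by the root mean square difference after centring, included Cd93 (0.374) and Smox (0.374), where the SD of Plin2 itself was 1.08. Cd93 is a receptor of endothelial and myeloid cells, and Smox oxidises spermine. For Cidec (SD 1.65) the nearest gene of all was Plin2 (0.795), followed by the pseudogene Krt8-ps (0.816) and the acyltransferase Gpat3 (0.822). For Plin4 (SD 0.634) they were Rcc1 (0.281), Lama5 (0.366) and Fbxo33 (0.368), and neither Plin5 nor Plin2 was among them. These are descriptions over 12 livers of 4 groups, so a shared difference between groups is part of each likeness.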
